A study of Homo sapiens with 14 samples.

Results

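The BCL2 family decides whether a cell releases cytochrome c from its mitochondria and enters apoptosis, and 10 of its genes were examined for binding of SKI and RUNX1 in HL60 cells. The genes were BCL2, BCL2L1, MCL1, BCL2A1, BAX, BAK1, BCL2L11, BBC3, PMAIP1 and BID, chosen by name out of 24510 gene names that the peak lists carry. A peak was counted for a gene when the deposited list gave that gene as the next transcript, wherever the peak lay. HL60 is an established human acute myeloid leukaemia line. SKI is a corepressor recruited to DNA by partner proteins such as SMADs, and RUNX1 is a transcription factor that binds DNA directly. Both were mapped by chromatin immunoprecipitation and sequencing, and 4 peak lists out of 14 samples were used. These were SKI in WT cells (replicates 1 and 2), SKI in CRISPR/Cas9 control cells (1 list, called the control list here) and RUNX1 in WT cells (1 list), all in serum-containing medium with no other agent named. Cells with SKI deleted and the other immunoprecipitations were not analysed here, and no SKI-independent background was subtracted with them. Whether the control cells are 1 clone, and whether the WT replicates are separate cultures, is not given in the sources used here. Peak lists hold no expression levels by which the identity of the cells could be checked. Positions are on hg19 as deposited.

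The family falls into 3 roles. The anti-apoptotic members (BCL2, BCL2L1, MCL1 and BCL2A1) hold the pore-forming effectors BAX and BAK1 in check at the outer mitochondrial membrane. BH3-only proteins (here BCL2L11, also known as BIM, BBC3 or PUMA, PMAIP1 or NOXA, and BID) are the stress sensors that bind the anti-apoptotic members and set the effectors free. Myeloid cells rely on MCL1 for survival, and drugs that mimic BH3-only proteins are used in acute myeloid leukaemia.

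SKI peaks were listed at all 10 genes in WT replicate 1, at 7 in WT replicate 2 and at 8 in the control list, whereas RUNX1 peaks were listed at 3. Over all 20056 protein-coding gene symbols, 65.1%, 30.7%, 29.7% and 11.3% had at least 1 peak in these lists, in that order. The members held 32 of 54841 peaks in WT replicate 1, 20 of 14431 in WT replicate 2, 23 of 14019 in the control list and 6 of 5581 in the RUNX1 list. By gene name, the peaks were spread unevenly over the roles. The 4 BH3-only genes held 19, 16 and 16 of the SKI peaks in WT replicate 1, WT replicate 2 and the control list, and every one of the 6 RUNX1 peaks. The 4 anti-apoptotic genes held 8, 3 and 6 SKI peaks, the 2 effectors held 5, 1 and 1, and neither role had a RUNX1 peak. PMAIP1 alone held 10, 6 and 7 of the BH3-only SKI peaks and 3 of the RUNX1 peaks. Every peak of the anti-apoptotic and effector genes lay within 10000 bp of a start, while many of the BH3-only peaks did not. Within that distance the members held 22, 15, 16 and 3 peaks in the 4 lists, of which PMAIP1 held 4, 3, 2 and 1. The roles therefore differed less near starts. These counts go by gene name. Inside the BCL2 stretch, 7, 5 and 5 SKI peaks and 2 RUNX1 peaks are assigned to other genes. At BBC3 the same holds for 1 SKI peak each in WT replicate 2 and the control list and for 1 RUNX1 peak. At BID it holds for 1 SKI peak of WT replicate 1. Counted by position, the members held 40, 26, 29 and 9 peaks in the 4 lists.

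**Figure D1:**
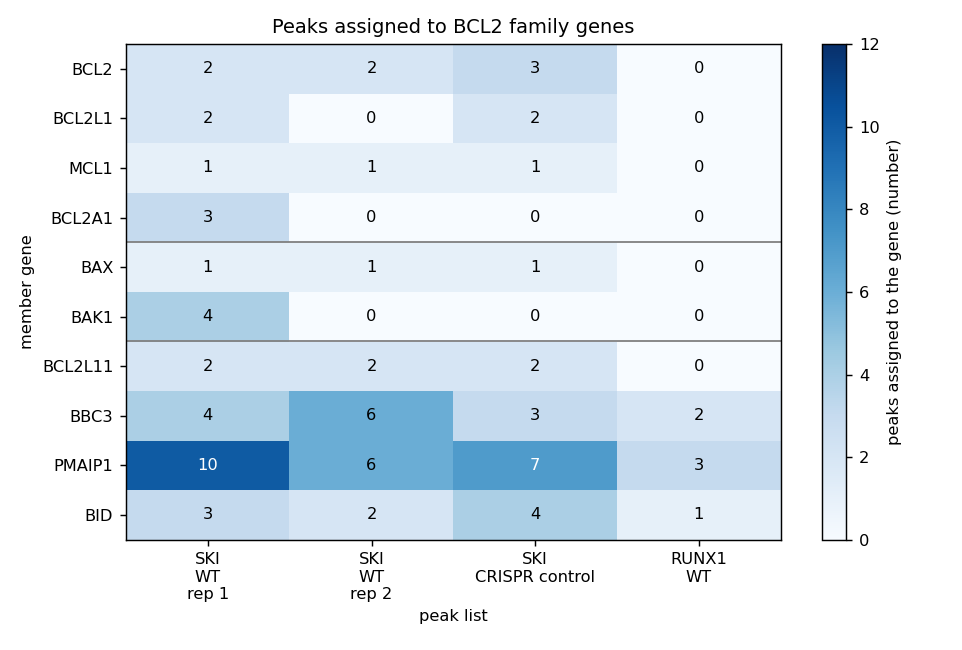
Number of peaks assigned to each gene (vertical axis, grey lines separating the anti-apoptotic, effector and BH3-only genes) in each of the 4 peak lists (horizontal axis), with the count printed and shaded in each cell. PMAIP1 has the most peaks in WT replicate 1 (10) and in the control list (7) and is level with BBC3 in WT replicate 2 (6), while BCL2A1 and BAK1 have peaks in WT replicate 1 alone.

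Among the members, PMAIP1 had the most peaks by gene name, level with BBC3 in WT replicate 2. It had 10 peaks in WT replicate 1, 6 in WT replicate 2, 7 in the control list and 3 in the RUNX1 list. In WT replicate 1, 358 of 23945 gene names (1.5%) had at least as many peaks. In WT replicate 2 the same held for 129 of 9303 names (1.39%), in the control list for 61 of 9310 (0.655%) and in the RUNX1 list for 260 of 4218 (6.16%). BBC3 had 4, 6, 3 and 2 peaks in these lists, and BID had 3, 2, 4 and 1. Many PMAIP1 peaks lay far from a start, and within 10000 bp of one it had 4, 3, 2 and 1. Within that distance BAK1 had as many in WT replicate 1 (4). BBC3 had more in WT replicate 2 (5) and in the RUNX1 list (2), and BCL2 and BID had more in the control list (3 each). MCL1 and BAX had exactly 1 peak in each SKI list. BCL2L1 had 2 peaks in WT replicate 1 and 2 in the control list and none in WT replicate 2, and BCL2A1 (3 peaks) and BAK1 (4 peaks) were listed in WT replicate 1 only.

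The lists differ in ways that touch these counts. Median tags per peak (tags are the sequenced fragments counted in a peak) were 97, 56, 61 and 56 over all peaks of WT replicate 1, WT replicate 2, the control list and the RUNX1 list. The deposited list of WT replicate 1 numbers its peaks in genome order up to 75197, and 72.9% of those numbers are present. Of the gaps between neighbouring peaks of that list, 23.9% skip a number, and these gaps make up 67.5% of the distance between its peaks. Of the sites found in WT replicate 2 and in the control list but not in WT replicate 1, 241 of 241 (100%) lie in a gap with a skipped number, against 120 of 147 (81.6%) of the sites found in only 1 of those 2 lists. The promoters of BBC3 and BCL2 lie in such gaps, so a missing peak of WT replicate 1 is not read as missing signal there. Why the numbers are skipped was not tested.

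Promoter sequence is shown for BAX, BCL2L11 and PMAIP1, the genes with a SKI site common to all 3 SKI lists and of the start-site class in each, and with a single entry in the RefSeq promoter table. Each sequence gives the 250 bases upstream of the start on the strand of the gene, in the build GRCh38.p14. That build differs from the build of the peaks, and no coordinate was converted. The positions are chr19:48954625-48954874 (plus strand) for BAX, chr2:111120664-111120913 (plus strand) for BCL2L11 and chr18:59899746-59899995 (plus strand) for PMAIP1. Capitals mark matches to 4 short motifs, searched on both strands: TGTGGT and TGCGGT (letters bound by RUNX proteins), CAGAC (bound by SMADs) and CCGGAAG (bound by ETS factors).
BAX: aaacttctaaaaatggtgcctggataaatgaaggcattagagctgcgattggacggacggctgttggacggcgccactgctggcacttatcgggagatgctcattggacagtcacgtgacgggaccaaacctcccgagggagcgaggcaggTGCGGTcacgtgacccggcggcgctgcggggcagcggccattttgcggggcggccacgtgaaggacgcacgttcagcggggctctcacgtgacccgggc
BCL2L11: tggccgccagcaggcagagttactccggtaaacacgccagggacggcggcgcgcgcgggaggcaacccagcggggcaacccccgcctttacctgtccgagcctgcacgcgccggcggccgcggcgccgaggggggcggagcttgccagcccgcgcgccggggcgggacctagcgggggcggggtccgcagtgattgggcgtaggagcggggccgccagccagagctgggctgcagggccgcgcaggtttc
PMAIP1: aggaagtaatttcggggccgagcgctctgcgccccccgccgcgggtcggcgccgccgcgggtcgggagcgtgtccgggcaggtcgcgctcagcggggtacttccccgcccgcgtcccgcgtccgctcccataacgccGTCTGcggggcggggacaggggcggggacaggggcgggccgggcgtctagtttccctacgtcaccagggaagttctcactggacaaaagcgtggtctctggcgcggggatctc
BAX holds TGCGGT at position -99 from its start, and PMAIP1 holds CAGAC at -113 on the opposite strand, where it reads GTCTG in the sequence printed. BCL2L11 has none of the 4 motifs in these 250 bases. Guanine and cytosine made up 62.8%, 76.8% and 72.8% of the bases, against a median of 58.0% over the windows of all promoters in the table. Of the 10 genes, 9 had an entry, with 14 entries in all. In windows that also take in the first bases of the transcript, TGTGGT was found for BCL2 and BCL2L1 (2 of 9 genes, beside 13.1% of all promoter windows) and TGCGGT for BAX (1 of 9, beside 7.29%). CAGAC was found for 6 of 9 genes (BAK1, BBC3, BCL2L1, BCL2L11, BID and PMAIP1, beside 45.3% of windows), and CCGGAAG for BCL2L1 (1 of 9, beside 10.3%). Some genes had several entries and so several chances of a match. A match describes the letters and not a bound site.

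MCL1, whose short-lived protein restrains BAK1 and binds BCL2L11, had 1 SKI site at its start in every SKI list. The site spanned chr1:150550394-150552857. Its peak summits, the bases of greatest pile-up, lay apart. They stood at base 150552316 in WT replicate 1, 150552073 in WT replicate 2 and 150551182 in the control list. With summits required to lie within 250 bp, it was not a site of all 3 lists. Fold enrichment over background, the authors' value for a peak, was 34.2 in WT replicate 1 (611 tags, 87 bp upstream of a start), 6.69 in WT replicate 2 (52 tags, 162 bp downstream) and 6.51 in the control list (111 tags, 61 bp downstream). Since fold enrichment depends on each library, it is read by rank within a list. The MCL1 peak ranked 13187 of 54841 in WT replicate 1, 11565 of 14431 in WT replicate 2 and 12334 of 14019 in the control list. It thus stood in the stronger part of the first list and in the weaker part of the others.

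BCL2, the founding member of the family, had SKI peaks over its promoter in WT replicate 2 and in the control list, and in WT replicate 1 only at the edge of that region. WT replicate 2 listed chr18:60986661-60988655 (8.91-fold, 256 tags, 104 bp downstream of a start) and chr18:60985117-60985798 (8.05-fold, 105 tags, 577 bp downstream). The control list had 3 adjoining peaks from chr18:60985133-60987591 (9.35-fold, 218 tags) over chr18:60987682-60988431 (6.69-fold) to chr18:60988552-60990171 (4.45-fold). In WT replicate 1 the peak at chr18:60990075-60990703 (13.2-fold, 100 tags, 3067 bp upstream) met the last of these by 97 bp, and by that overlap alone the site counts as present in every SKI list. The list of WT replicate 1 skips a number between 60960937 and 60990075, the stretch that holds 3 peaks of WT replicate 2 and 2 of the control list. A further peak of WT replicate 1 (8.85-fold, 106 tags) lay 100 bp upstream of the start of a BCL2 transcript inside the gene.

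Between the outermost BCL2 peaks the lists also hold peaks whose next transcript is another gene, since a small nucleolar RNA and a non-coding RNA lie inside BCL2. There were 7 such peaks in WT replicate 1, 5 in WT replicate 2, 5 in the control list and 2 in the RUNX1 list, and all but 1 are of the intron class. The RUNX1 peak at chr18:60903536-60903957 (8.54-fold, 35 tags) overlapped a SKI peak of each list, at 27.3-fold in WT replicate 1, 5.68-fold in WT replicate 2 and 9.38-fold in the control list. Its summit, the base of greatest pile-up, lay 16, 10 and 58 bp from the SKI summits. The other RUNX1 peak, at chr18:60920345-60921200 (4.41-fold, 46 tags), overlapped a SKI peak in WT replicate 1 only. By the rule used for the counts, none of these belongs to BCL2, which therefore has no RUNX1 peak of its own.

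BCL2L1, which encodes BCL-XL, had the same pair of sites in WT replicate 1 and in the control list. At the start site (chr20:30310195-30312028) the peaks reached 14.4-fold with 399 tags and 5.75-fold with 37 tags. The upstream site at chr20:30315186-30315957 was at 37.6-fold (165 tags, 3847 bp upstream) in WT replicate 1 and at 8.31-fold (37 tags, 3843 bp upstream) in the control list. The upstream peak had the higher fold enrichment in both lists. BCL2A1, a myeloid family member known as a target of NF-kappa-B, had peaks in WT replicate 1 alone: at the start (chr15:80263340-80264034, 17.2-fold, 122 tags), 2765 bp downstream (10.6-fold, 37 tags) and 6156 bp upstream (15.2-fold, 136 tags). Over the 4 anti-apoptotic genes the median fold enrichment was 14.8 in WT replicate 1, 8.05 in WT replicate 2 and 6.60 in the control list, beside 18.8, 10.4 and 11.6 over all peaks of these lists.

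Of the effectors, BAX had 1 SKI peak at its start site in each SKI list, within the site chr19:49457509-49458719. The summits stood close together, at base 49458114 in WT replicate 1, 49458105 in WT replicate 2 and 49458123 in the control list. The peak reached 28.6-fold with 170 tags in WT replicate 1, 8.46-fold with 30 tags in WT replicate 2 and 14.4-fold with 60 tags in the control list. Its ranks were 16644 of 54841, 9241 of 14431 and 5210 of 14019. The 30 tags in WT replicate 2 were the fewest of any member peak in that list. BAK1, which forms the same pore as BAX, had 4 peaks in WT replicate 1 and none elsewhere. The one at its start (chr6:33547364-33548439, 23 bp upstream) was at 13.1-fold with 125 tags, and the others, 1412, 2950 and 8948 bp downstream, were at 6.82, 11.7 and 11.9-fold.

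BCL2L11 encodes BIM, a BH3-only protein that binds every anti-apoptotic member. Its promoter region, chr2:111877212-111881450, held the broadest site of a BH3-only gene. WT replicate 1 listed it as a single peak of 45.2-fold with 1230 tags, more tags than any other member peak, at rank 8790 of 54841. WT replicate 2 had 2 peaks there, at 12-fold (135 tags, 47 bp upstream) and 4.99-fold (33 tags, 482 bp upstream of another start). The control list also had 2, at 10.8-fold (186 tags, 484 bp upstream) and 8.22-fold (46 tags, 522 bp downstream). A weaker peak 1283 bp upstream (8.85-fold, 41 tags) was seen in WT replicate 1 only. No RUNX1 peak was assigned to the gene.

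BID links death receptors to the mitochondria, since its cleaved form activates BAX and BAK1. By gene name it held the RUNX1 peak of highest fold enrichment among the members, at chr22:18209428-18210059, 14164 bp downstream of a start and of the exon class. The class does not name the gene of the exon, which need not be BID. That RUNX1 peak was at 31.8-fold with 132 tags, rank 1157 of 5581. SKI peaks covered it in all 3 lists, at 33.3-fold in WT replicate 1 (313 tags), 6.68-fold in WT replicate 2 (91 tags) and 12.6-fold in the control list (89 tags). The SKI summits lay 42, 353 and 60 bp from that of RUNX1. At the promoter (chr22:18255421-18258143) SKI was listed without RUNX1. The promoter peak was at 35.4-fold (698 tags, 38 bp upstream) in WT replicate 1 and 8.28-fold (43 tags, 69 bp downstream) in WT replicate 2, and the control list had peaks of 8.24-fold (37 tags) and 5.31-fold (54 tags). An intron site, 2344 bp downstream in WT replicate 1, was present in WT replicate 1 (18.4-fold) and in the control list (5.96-fold).

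BBC3 encodes PUMA, a BH3-only protein that binds every anti-apoptotic member. It was the only member with RUNX1 at a start site. RUNX1 peaks at chr19:47730169-47730646 (29.5-fold, 49 tags) and chr19:47731033-47731521 (13.6-fold, 44 tags) lay 69 and 804 bp upstream of the start of a short BBC3 transcript. That start is inside the gene, since the first of these peaks spans 5.38 to 5.85 kb downstream of the BBC3 start taken as 0 in the plot of the locus. SKI peaks of WT replicate 2 covered both, at 19.7-fold (77 tags) and 18.6-fold (138 tags), with summits 26 and 5 bp from those of RUNX1. The next peaks on that side, a RUNX1 peak of 15.9-fold and a SKI peak of WT replicate 2 of 23.0-fold, are assigned to the microRNA gene MIR3191. So is the wide SKI peak of the control list at chr19:47729021-47732080 (27.1-fold, 454 tags), which takes in all 3 RUNX1 peaks. By gene name alone the control list therefore has no BBC3 peak with RUNX1, although SKI and RUNX1 peaks overlap there in that list too. The summit of that wide peak lay 668 and 1429 bp from those of the RUNX1 peaks assigned to BBC3.

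Around the other BBC3 starts, SKI peaks without RUNX1 were listed in WT replicate 2 and in the control list at nearly the same positions. They stood at 11.7 and 16.9-fold (714 and 716 bp downstream of a start) and at 8.80 and 9.43-fold (291 and 320 bp upstream). WT replicate 2 also had a peak of 9.41-fold, 1389 bp upstream of the start inside the gene. WT replicate 1 had no peak between 47714506 and 47743999, where its numbering skips 1 number and where 6 SKI peaks of WT replicate 2, 3 of the control list and 3 RUNX1 peaks lie. The BBC3 site present in all 3 SKI lists was upstream of the gene, at chr19:47746055-47748005. It was at 47.3-fold in WT replicate 1 (701 tags, 11499 bp upstream, rank 8122 of 54841), 10.1-fold in WT replicate 2 (113 tags) and 24.2-fold in the control list (160 tags, rank 2076 of 14019). In WT replicate 1 and in the control list it was the strongest peak assigned to BBC3 by name, and no RUNX1 peak overlapped it. WT replicate 1 further listed peaks of 10.2, 22.8 and 11.3-fold, 8476 bp upstream and 11662 and 45696 bp downstream of BBC3 starts.

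**Figure D2:**
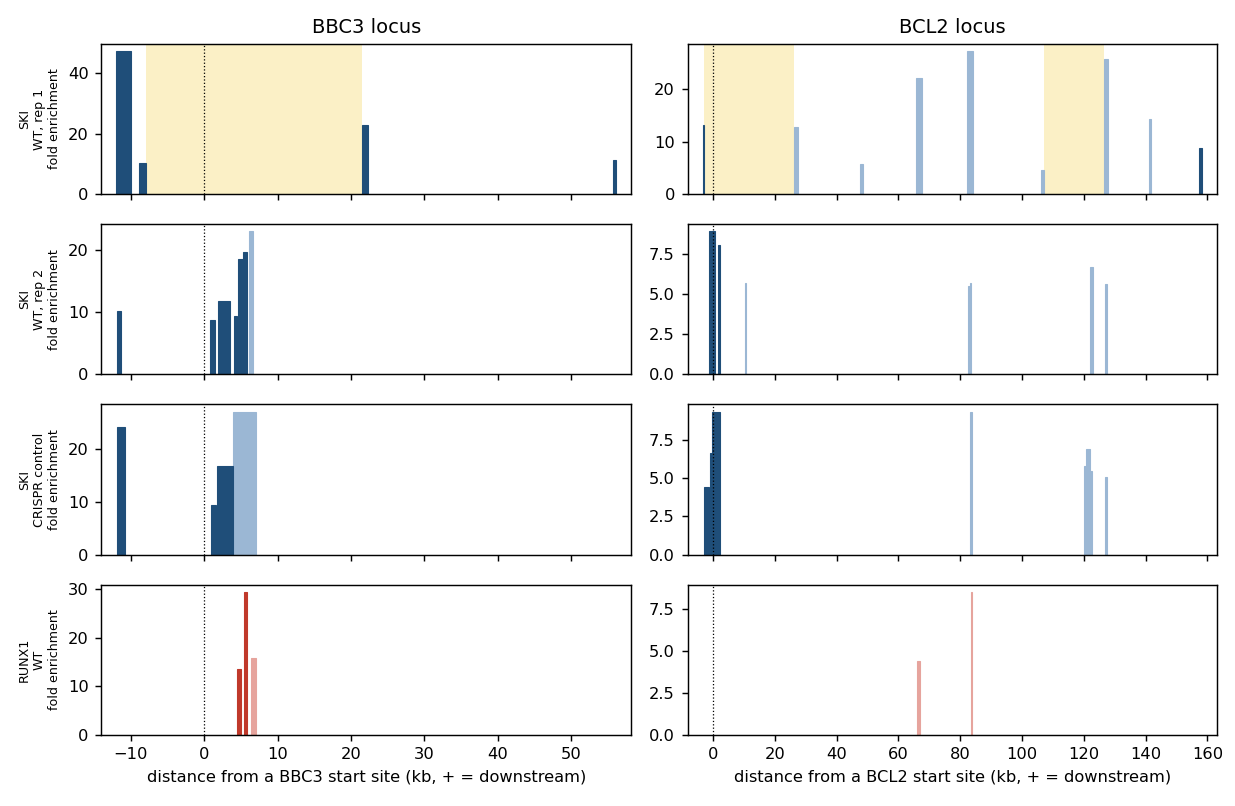
Fold enrichment (vertical axis, own scale per list) of every peak between the outermost peaks assigned to BBC3 (left) or BCL2 (right), against the distance in kb from 1 annotated start of the gene (horizontal axis, positive values downstream), with 1 row of panels per list. Dark bars are peaks assigned to the gene, pale bars are peaks assigned to another gene, bar width is peak width, and yellow marks the gaps of WT replicate 1 in which a peak number is skipped; the 3 RUNX1 peaks at BBC3 and the peaks around the BCL2 start in WT replicate 2 and the control list fall in such gaps.

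PMAIP1 encodes NOXA, a BH3-only protein that binds MCL1. SKI peaks recurred in all 3 SKI lists at 5 of its sites, from 37648 bp upstream to 11785 bp downstream of its starts in WT replicate 1, and RUNX1 peaks overlapped 3 of these. The site strongest in WT replicate 1 and in the control list lay upstream, at chr18:57544423-57545436. SKI was at 93.0-fold there in WT replicate 1 (419 tags, rank 1515 of 54841, 22379 bp upstream), 13.9-fold in WT replicate 2 (52 tags) and 12.8-fold in the control list (92 tags). The 93.0-fold was the highest of any member peak. RUNX1 was at 12.3-fold (66 tags), rank 4171 of 5581. The SKI summits lay 16, 15 and 11 bp from the RUNX1 summit.

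The downstream PMAIP1 sites with RUNX1 were at chr18:57571306-57573260 and chr18:57578130-57579552. At the first, 4909 bp downstream of a start in WT replicate 1, SKI was at 66.6-fold in WT replicate 1 (757 tags, rank 4120), 17.1-fold in WT replicate 2 (126 tags, rank 3052 of 14431, the strongest PMAIP1 peak of that list) and 11.2-fold in the control list (135 tags), with RUNX1 at 11.5-fold (44 tags). Here the summits were 26, 17 and 2 bp apart. At the second, 11785 bp downstream in WT replicate 1, SKI was at 72.6-fold (551 tags, rank 3264), 5.12-fold (44 tags) and 11.2-fold (92 tags) in the same order, with RUNX1 at 8.93-fold (37 tags) and summits 11, 26 and 17 bp apart. This last site ranked 13582 of 14431 in WT replicate 2, so its standing differed widely between the WT replicates. All 3 RUNX1 peaks at PMAIP1 stood in the weaker part of the RUNX1 list, at ranks 4171, 4339 and 4940 of 5581.

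At the PMAIP1 promoter itself (chr18:57566422-57568833) SKI was listed without RUNX1. WT replicate 1 had 1 peak of 39.5-fold with 863 tags, WT replicate 2 had peaks of 7.45-fold (109 tags, 100 bp upstream) and 5.81-fold (51 tags), and the control list had 1 of 8.70-fold (177 tags). The remaining recurrent site, chr18:57529053-57530188, was also without RUNX1, at 43.9, 8.73 and 7.60-fold. Of the other 5 sites, 2 were in WT replicate 1 and the control list (18.5 and 4.13-fold, and 28.9 and 8.13-fold), and 3 were in WT replicate 1 only, at 7.22, 5.12 and 15.2-fold.

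**Figure D3:**
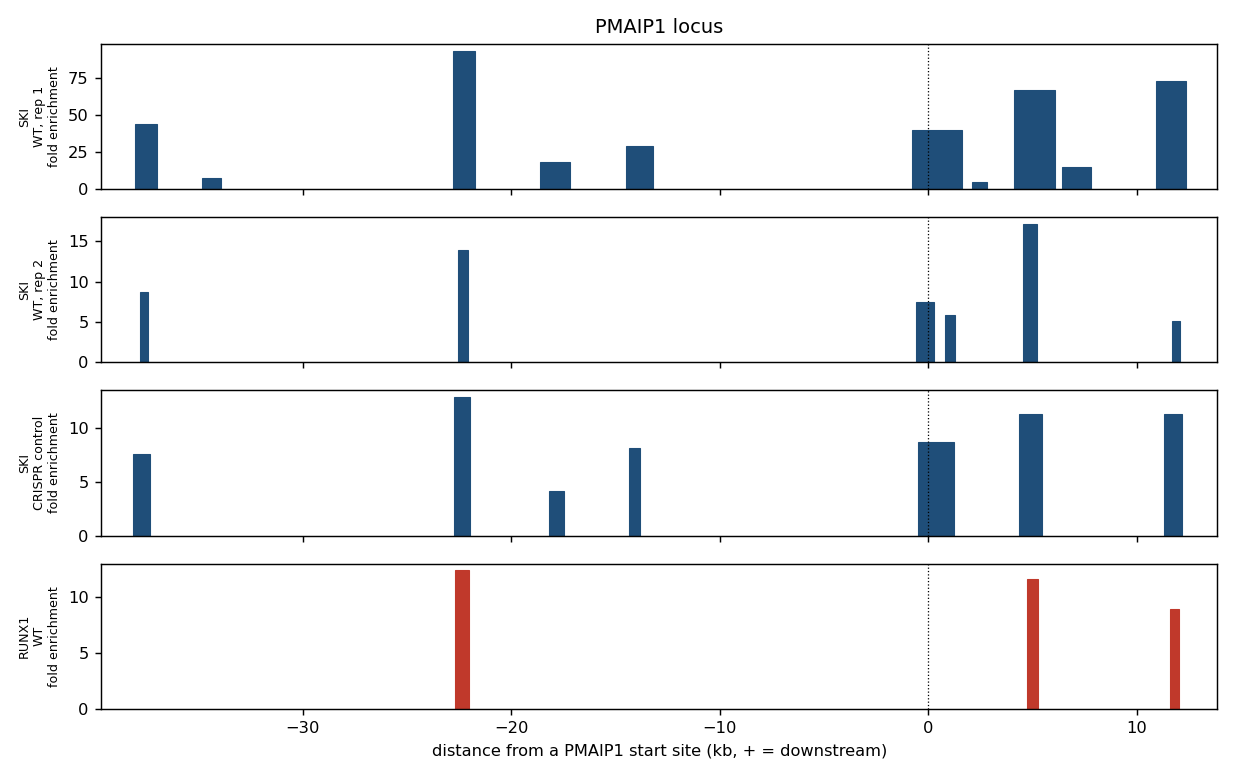
Fold enrichment (vertical axis, own scale per list) of all peaks at PMAIP1 against the distance in kb from 1 annotated start (horizontal axis, positive values downstream), with 1 row of panels for each SKI list (blue) and for RUNX1 (red) and with bar width equal to peak width. The 3 RUNX1 peaks stand under SKI peaks of every list, with 12.3-fold at the upstream one, and no RUNX1 peak stands at the start site.

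Joined over the 3 SKI lists by overlap, the members' SKI peaks formed 35 sites. Of these, 12 were present in all 3 lists (34.3%, 95% Wilson interval 20.8 to 50.8%, which covers counting error only), beside 16.3% of all 55146 SKI sites. A further 8 were in 2 lists and 15 in 1 list, each of the 15 in WT replicate 1. The 12 sites belonged to 7 genes, with 5 at PMAIP1, 2 at BID and 1 each at BCL2, MCL1, BAX, BCL2L11 and BBC3, while 24.0% of all protein-coding genes had such a site. With summits required to lie within 250 bp, 4 genes kept such a site, and BCL2, MCL1 and BCL2L11 did not. Without PMAIP1, 7 recurrent sites were left. With the SKI lists cut to the 5581 peaks of highest -log10 p-value, 3 sites recurred, at BCL2L11, BBC3 and PMAIP1. Peaks of 1 gene share a locus and are not replicates of each other, and each condition but WT SKI is a single list, so no test was made.

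RUNX1 overlapped 4 of these 12 recurrent sites (33.3%, interval 13.8 to 60.9%), beside 33.5% of the 8980 recurrent SKI sites. The 4 were 3 PMAIP1 sites and the site of the exon class assigned to BID. Counted by peak, 4 of 32 member peaks overlapped RUNX1 in WT replicate 1 (12.5%, interval 4.97 to 28.1%), 6 of 20 in WT replicate 2 (30.0%, 14.5 to 51.9%) and 4 of 23 in the control list (17.4%, 6.98 to 37.1%). Over all peaks of these lists the shares were 9.21%, 23.9% and 27.8%. The intervals take peaks of 1 gene as independent, which they are not, so they do not test a difference from these shares. PMAIP1 supplied most of the overlaps, and without it 1, 3 and 1 were left. Seen from RUNX1, 4 of its 6 member peaks overlapped a SKI peak of WT replicate 1, and 6 of 6 did so in WT replicate 2 and in the control list. Over all RUNX1 peaks these shares were 92.9%, 60.4% and 70.7%. In the control list the overlaps at BBC3 come from the wide peak assigned to MIR3191, with summits 668 and 1429 bp apart. A SKI peak of every list lay under 4 of the 6, beside 54.5% of all RUNX1 peaks, and the exceptions were the BBC3 peaks in the gap of WT replicate 1. Median distances between summits over all overlapping RUNX1 peaks were 28, 33.5 and 36 bp, and those at PMAIP1 lay under these medians in every list.

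Member SKI peaks with RUNX1 had a higher median fold enrichment than those without in each list. The medians were 69.6 against 15.2 in WT replicate 1, 15.5 against 8.60 in WT replicate 2 and 11.9 against 8.22 in the control list. The same order held over all peaks, at 56.9 against 17.5, 14.5 against 9.48 and 17.4 against 10.4. Ranges overlapped in every list. In WT replicate 1 the peaks with RUNX1 ran from 33.3 to 93.0-fold and those without from 5.12 to 47.3-fold. In WT replicate 2 the ranges were 5.12 to 19.7 and 4.99 to 12-fold, and in the control list 11.2 to 12.8 and 4.13 to 24.2-fold. The strongest peak there by member name, upstream of BBC3, had no RUNX1. Stronger peaks with RUNX1 at the BBC3 locus are assigned to MIR3191 and not counted here. They stood at 27.1-fold in the control list and 23.0-fold in WT replicate 2. Without PMAIP1 the difference in WT replicate 1 fell from 54.4 to 18.9 and rests on the exon-class peak assigned to BID alone.

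Most members' SKI peaks were of middle or low rank in their lists. Ranked by fold enrichment with 0% as the strongest, the median member peak stood at 52.9% in WT replicate 1, 61.6% in WT replicate 2, 73.6% in the control list and 71.8% in the RUNX1 list. The RUNX1 value rests on 6 peaks, and without PMAIP1 it was 24.0%. Only WT replicate 1 had member peaks in the strongest 10%, and its 3 were the PMAIP1 sites with RUNX1. By tags they stood higher. Median tags per member peak were 181, 77.5, 69 and 46.5 in the same order of lists, against 97, 56, 61 and 56 over all peaks. Member peaks of the SKI lists were wider than the list's median, at 1100.5 against 710 bp, 538 against 472 bp and 801 against 691 bp, while those of RUNX1 were 505.5 against 553 bp. Ranked by tags, the median member stood at 30.6%, 28.9% and 42.2% in the SKI lists. In WT replicate 1, 8 member peaks carried a -log10 p-value of 310, which 4622 peaks of that list share and which therefore does not rank them.

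**Figure D4:**
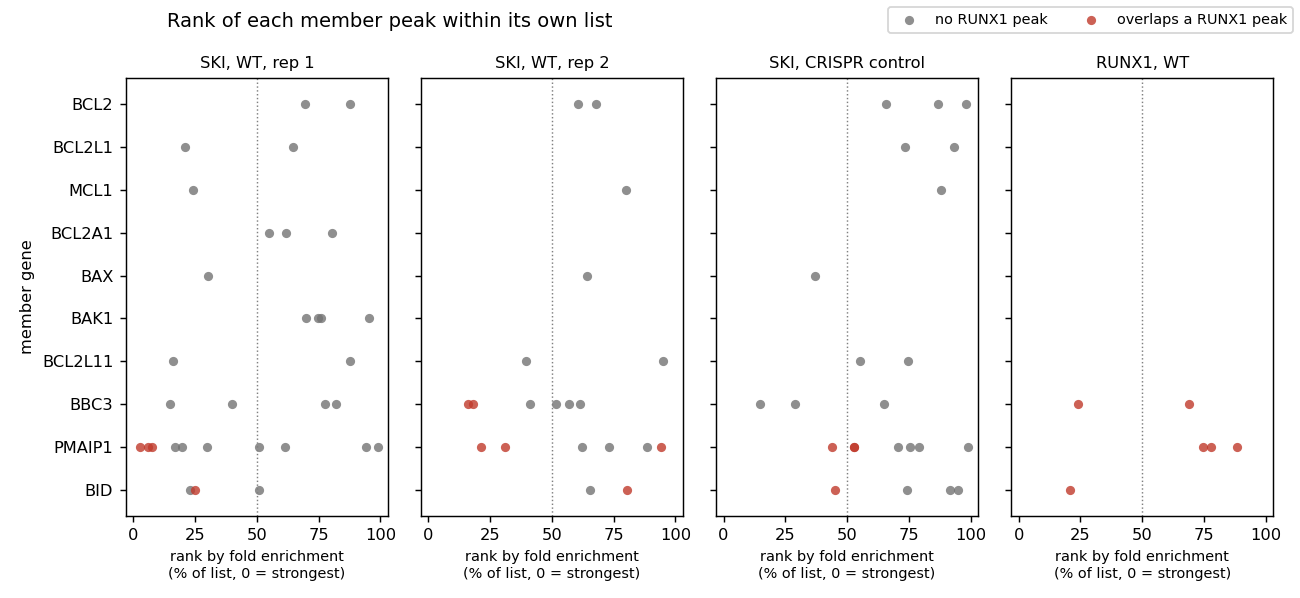
Rank of each member peak by fold enrichment within its own list (horizontal axis, percent of the list, 0 the strongest; dotted line at 50%) for each gene (vertical axis), with 1 panel per list; red points overlap a RUNX1 peak (in the last panel, they are the RUNX1 peaks) and grey points do not. In WT replicate 1 the 3 PMAIP1 peaks with RUNX1 are the only points in the strongest 10%, and in the control list most points lie to the right of the line.

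By the authors' position classes, SKI peaks of the start-site class made up 11 of 32 member peaks in WT replicate 1 (34.4%, interval 20.4 to 51.7%), 14 of 20 in WT replicate 2 (70.0%, 48.1 to 85.5%) and 13 of 23 in the control list (56.5%, 36.8 to 74.4%). Over all peaks the shares were 35.2%, 52.4% and 48.0%. For RUNX1 it was 2 of 6 member peaks (33.3%, 9.68 to 70.0%), both at BBC3, beside 23.5% of all RUNX1 peaks. RUNX1 overlapped 0 of 11, 2 of 14 and 0 of 13 member SKI peaks of this class, and 4 of 21, 4 of 6 and 4 of 10 of the others. Over all peaks of these lists RUNX1 overlapped 6.81%, 12.8% and 15.7% of the start-site class and 10.5%, 36.2% and 39.1% of the others, so the lower share at start sites is that of the whole lists too. The 2 were the BBC3 peaks of WT replicate 2. Intron peaks of the members numbered 3 of 32 in WT replicate 1 (9.38%, interval 3.24 to 24.2%), 0 of 20 in WT replicate 2 (interval up to 16.1%) and 1 of 23 in the control list (4.35%, 0.772 to 21.0%), beside 30.5%, 22.3% and 25.1% of all peaks. The small nucleolar RNA and the non-coding RNA inside BCL2 take the intron peaks of that gene under the assignment by next transcript.

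The rest of the apoptosis pathway was read from a list of 41 genes in 6 groups. SKI peaks were assigned to 34 of them in WT replicate 1, 19 in WT replicate 2 and 20 in the control list, and RUNX1 peaks to 6. These counts stand beside the shares over all protein-coding symbols given above. A site present in all 3 SKI lists was found for 16, with RUNX1 for 4. Over all protein-coding genes 24.0% had such a site, and the counts per group below stand beside that share. Of all recurrent SKI sites 33.5% had a RUNX1 peak, and the share of all genes with such a site and RUNX1 was not computed. Among 11 further BCL2 family genes, 3 had a recurrent site. The BH3-only gene BMF had 3 such sites, the strongest in an intron 7137 bp downstream of a start at 121-fold in WT replicate 1, 19.2-fold in WT replicate 2 and 33.8-fold in the control list, with no RUNX1 peak assigned to the gene. BCL2L14 had 1 upstream of the gene, at 73.2, 21.6 and 26.3-fold and with RUNX1 at 51.6-fold. BCL2L13 had 1 at a start site, at 34.6, 6.87 and 9.42-fold, without RUNX1. Stronger start-site peaks of BCL2L13 lay elsewhere, at 65.53-fold in WT replicate 1 and 20.44-fold in WT replicate 2. A RUNX1 peak of 11.75-fold, 187 bp upstream of a start, was also assigned to BCL2L13. BIK, a BH3-only gene, had peaks in every SKI list (12.2, 44.9 and 37.0-fold) but no site common to them, and no RUNX1 peak.

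Genes that act before and after the mitochondrial step were also covered. All 3 death receptor genes on the list had a recurrent start-site peak. CFLAR, which encodes the inhibitor of caspase-8 activation FLIP, was at 97.5, 28.3 and 40.3-fold with RUNX1 at 32.0-fold, the adaptor FADD at 99.9, 15.1 and 22.1-fold, and the receptor FAS at 29.4, 6.0 and 4.98-fold. Of 9 caspases and substrates 5 had a recurrent site. CASP8, the caspase that cleaves BID, was at 71.5, 41.7 and 19.0-fold at its start site with RUNX1 at 13.8-fold. PARP1, a caspase substrate, had its strongest peaks 12055 bp downstream of a start, at 81.9, 21.0 and 30.3-fold with RUNX1 at 12.8-fold, and CASP6 (28.3, 8.41 and 5.81-fold) had a weaker one. Of 7 genes for the apoptosome and factors released with cytochrome c, DIABLO (67.7, 14.7 and 67.0-fold) and CASP9 (19.3, 7.18 and 6.25-fold) had 1 each. Of 6 caspase inhibitors it was BIRC2 (70.9, 15.9 and 17.0-fold) and BIRC6 (25.5, 7.46 and 6.16-fold), and of 5 mitochondrial partners VDAC2 (47.0, 14.1 and 17.0-fold), a channel of the outer membrane that binds BAK1. The strongest BIRC6 peak of WT replicate 1 was another, of the intron class at 53.18-fold and 12116 bp downstream of a start. A RUNX1 peak of 11.39-fold was listed 12127 bp downstream of a BIRC6 start.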

How the data were processed

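Peak lists of 4 samples were read as deposited, with groups and replicate numbers taken from the sample titles. The submitters' processing notes name the tools bcl2fastq, Bowtie2, MACS 1.4 and deepTools, and the builds hg19 and GRCh37. Sequencing depth is not given in the sources used here, nor is the control library of each immunoprecipitation. For every peak the deposited files hold, per the file headers, a −log10 p-value, a fold enrichment (a ratio to background) and a count of tags. The authors listed peaks per sample and added a position class, the gene name of the next transcript and a signed distance to its start, which refers to differing transcripts of a gene, so that the class and the distance need not be to the same start. The base of the peak it is measured from is not stated, and it need not be the summit. The FDR column was not used. Whether starts count from 0 or 1 is not stated, so positions may be off by 1.

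Peaks whose next transcript was a member were kept. SKI peaks that shared 1 bp or more formed a site, called recurrent when they held a peak of all 3 SKI lists. Ranks are by fold enrichment within a list. Shares carry 95% Wilson intervals. Background gene shares are over 20056 RefSeq protein-coding symbols, taken from a table for GRCh38.p14 that served for names only. In it, 96.6% of 13808 protein-coding gene names in the lists were found, as were the 10 members. All members are named, in full where a peak lay within 10000 bp of a start, was a gene's strongest in a list or met RUNX1. Of each other pathway group up to 4 genes are named, by the smallest worst rank over the SKI lists. Some genes that this rule selects are not reported here. Members and gene lists were chosen with earlier results of these data known. The interval code was tested on simulated data. Alternatives were other overlap rules, lists of equal length, a −log10 p of at least 10, other ranks, leaving out each SKI list, and, chosen after seeing the data, assignment by position and leaving out PMAIP1. The work used matplotlib 3.10.9, scipy 1.17.1, pandas 2.3.3 and numpy 2.4.6 under Python 3.11.15.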

Additional observations from a re-analysis of the deposited data

How the results depend on the processing

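Of 92 values recomputed under an alternative, 65 were labelled as the same and 27 as moved. Ranks and differences of medians were held against a standard deviation over the 3 SKI lists (10.4 for ranks). For counts and shares no such spread is given, so their labels do not show them to be stable. Recurrent sites going from 12 to 17 were labelled the same, and from 12 to 7 moved. Most of the 92 values are counts, shares or ranks, which cannot change sign, and no difference of medians with and without RUNX1 did. The standard deviation of that difference over the 3 SKI lists was 28.4. It exceeds the difference itself in WT replicate 2 (6.9) and in the control list (3.72), so a move below it says little there. Cutting each list to its 5581 peaks of highest −log10 p left 8 member peaks in WT replicate 1, 8 in WT replicate 2 and 9 in the control list, 5 genes with a peak in WT replicate 1 and 4 in WT replicate 2, 3 recurrent sites, and 3 overlaps with RUNX1 in WT replicate 2. Fewer peaks enter by construction. Only peaks within 10000 bp of a start left 3 RUNX1 peaks. Leaving out 1 SKI list gave 11 to 17 recurrent sites (15 without WT replicate 1, 17 without WT replicate 2, 11 without the control list). Summits within 250 bp gave 8, at 4 genes, and a −log10 p of at least 10 gave 10.

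Leaving out PMAIP1, chosen after seeing the data, left 7 recurrent sites, overlaps with RUNX1 of 1, 3 and 1 in WT replicate 1, WT replicate 2 and the control list, a median RUNX1 rank of 24.0% and a difference of medians with and without RUNX1 of 18.9 in WT replicate 1. The median rank of member peaks was 30.6%, 28.9% and 42.2% by tags in the SKI lists, 36.4%, 44.3% and 60.6% by −log10 p, and 34.9% (WT replicate 1), 57.3% (control list) and 59.8% (RUNX1) by tags per kb. With upstream bases alone, 11.0% of promoters held TGTGGT, 5.84% TGCGGT, 38.0% CAGAC and 8.52% CCGGAAG, since the window is shorter. The cause of the other changes was not tested. No paired analysis was possible because the WT and control SKI lists share fewer than 2 replicate numbers and no result comes from a test. Sequencing depth is unknown, so a gene without a peak in WT replicate 2 or the control list is a gene with none listed, not one shown to be unbound.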
